A study of Mus musculus with 6 samples.

Results

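The BCL2 family and the apoptosis inhibitors examined here are 10 genes chosen by name, Bcl2, Bcl2l1, Mcl1, Bcl2l11, Bid, Bad, Bak1, Bik, Xiap and Cflar, and they were followed in primary mouse hepatocytes that expressed nuclear CREBH. Each gene was read from the array feature that carried its symbol and no other, and from the brightest such feature where there were several. This gave a value for 9 of the 10 genes, out of 18820 genes measured. Both features that mention Bad also carry the symbol of Gpr137, so that Bad, a BH3-only protein, is named here without a value.

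Proteins of the BCL2 family decide whether the outer mitochondrial membrane is opened and cytochrome c released, the step that commits many cells to apoptosis. BCL-2, BCL-xL (the product of Bcl2l1) and MCL-1 hold the pore-forming effectors BAK and BAX in check, whereas BH3-only proteins such as BIM (Bcl2l11), BID and BIK relieve that restraint. XIAP blocks active caspases, and cFLIP (Cflar) blocks activation of caspase-8 at death receptors. In liver, BCL-xL and MCL-1 are known as survival factors of hepatocytes, and BID links the death receptor Fas to the mitochondria.

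The hepatocytes were isolated from livers of male wildtype C57BL/6J mice aged 8 to 10 weeks, cultured in 60 mm dishes and transduced with adenovirus for 24 h at a multiplicity of infection of 100. The control group received a virus for green fluorescent protein (Ad-GFP, 3 dishes), and the other group one for the nuclear form of cyclic AMP-responsive element-binding protein H (Ad-nuclear CREBH, 3 dishes, titled Ad-CREBH3 in the sample labels). All dishes therefore carried virus, and none was left untransduced. RNA of each dish went onto 1 array (Affymetrix Mouse Gene 1.1 ST), and the comparison asks which genes CREBH changes beside Fgf21. Neither labels nor methods say whether dishes came from separate animals, so that p-values measure the spread between these dishes, which may be technical.

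Expression is given as deposited, on the log2 scale after RMA, the background correction, normalization and probe summary used for these arrays. A difference of 1 on this scale is a 2-fold change. A gene is called risen or fallen with Ad-nuclear CREBH where the Benjamini-Hochberg adjusted p from limma, over all 18820 genes, was under 0.05. Creb3l3, the gene of CREBH, was higher by 2.10 in that group (SE 0.19, adjusted p = 9.0e-05), a value to which the viral transcript can contribute. The arrays numbered 1 correlated least with the others of their group across genes (mean r = 0.986 for Ad-GFP and 0.991 for Ad-nuclear CREBH, the remaining arrays from 0.991 to 0.994). The hepatocyte markers Alb, the albumin gene, and Apoa1, that of apolipoprotein A-I, had mean log2 values of 13.28 and 12.58, and differed between groups by -0.01 (adjusted p = 0.865) and 0.74 (adjusted p = 5.6e-05). Of 8 hepatocyte markers measured, 2 rose and 2 fell, beside 19.2% and 18.2% of all genes. All 8 were at or above the median level of all genes, where larger shares of genes rose and fell. The rises were those of Apoa1 and Pck1, the latter at 0.90. The falls were those of Tat, a tyrosine-degrading enzyme, at -2.17 (adjusted p = 0.0036) and Cps1, of the urea cycle, at -1.21 (adjusted p = 0.00165). The part of these markers in the members' values was not tested. In such bulk RNA, fewer cells of a type and less RNA per cell cannot be told apart.

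Of the 9 measured members, 5 fell in hepatocytes transduced with Ad-nuclear CREBH (Bcl2l1, Bak1, Bid, Bcl2 and Xiap) and 1 rose (Cflar), while Mcl1, Bcl2l11 and Bik did not pass the test. Among all genes, 18.2% fell and 19.2% rose. The median log2 fold change of the members was -0.49, against 0.039 for all genes, and the median absolute change was 0.59 against 0.29. These figures for all genes include many dim ones, whereas 7 of the 9 members were at or above the median level. Among genes at or above that level, fitted alone, 2967 fell and 2895 rose, in place of 3427 and 3615 among all genes. Since that fit leaves out the genes below the median, these are larger shares of its genes than 18.2% and 19.2%. Of the 7 members in that fit 4 fell and 1 rose. All 3 Ad-nuclear CREBH arrays lay below all 3 Ad-GFP arrays for the 5 members that fell, which was so for 23.1% of all genes. They lay above for Cflar and Mcl1, as for 26.2% of all genes. Centring each array on its median, which moved the median change of all genes from 0.039 to 0.18, left 1 member risen and 4 fallen, with Xiap no longer past the threshold (-0.35, adjusted p = 0.0674). With that centring 4814 genes rose and 2852 fell, in place of 3615 and 3427.

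**Figure D1:**
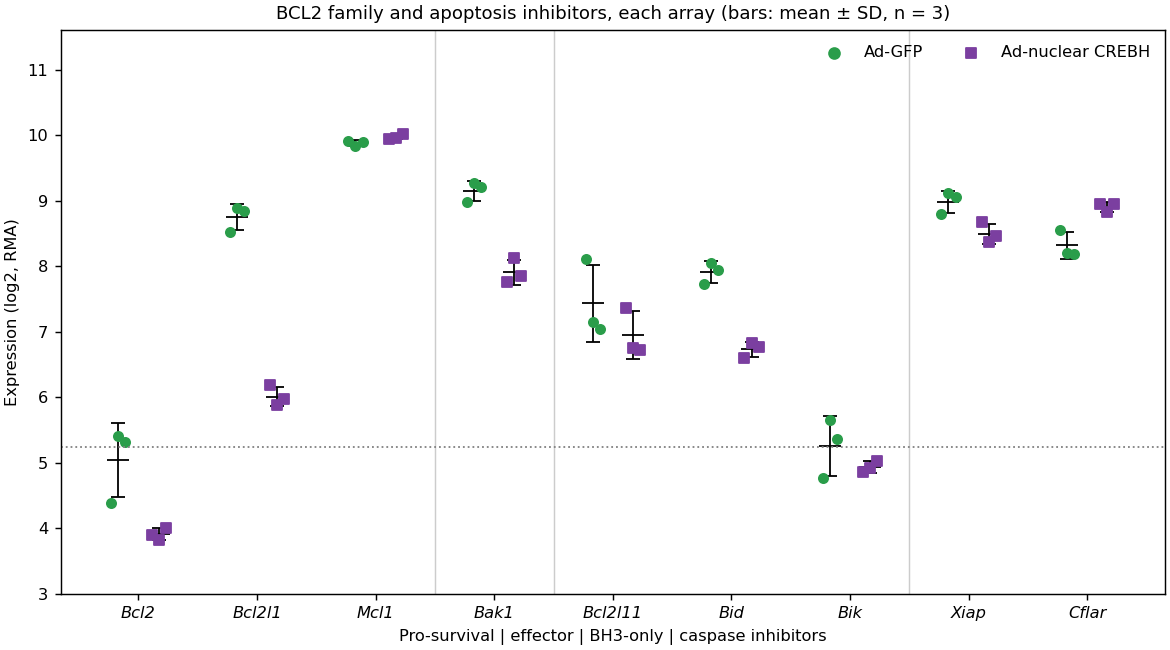
Expression (log2, RMA) of the 9 measured members on each array, with green circles for Ad-GFP and purple squares for Ad-nuclear CREBH, grouped by role; bars are the mean ± SD of 3 dishes and the dotted line is the median level of all genes, 5.24. The widest gap is that of Bcl2l1, from 8.75 to 6.01, and Mcl1 stays near 9.9 in both groups.

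Among the pro-survival members, Bcl2l1 changed most. Its log2 values were 8.53, 8.89 and 8.84 on the Ad-GFP arrays and 6.18, 5.88 and 5.97 on the Ad-nuclear CREBH arrays. The groups were far apart, and every Ad-nuclear CREBH value was within 1 log2 unit of the median level of all genes, 5.24. This is a 6.70-fold fall, or -2.74 on the log2 scale (SE 0.16, 95% interval -3.11 to -2.38, adjusted p = 2.0e-05 from limma). Ordered by size, it was fall number 207 among 18820 genes. With 1 array left out the log2 fold change was between -2.86 and -2.67. The single feature of Bcl2l1 does not tell the long survival form from shorter splice forms.

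RefSeq (GRCm38.p6) gives 3 start sites for Bcl2l1. The 250 bases before the outermost of them are shown because this gene had the largest change of the members, in lower case since none of the motifs searched occurs in them.
Bcl2l1, chr2:152831729-152831978, minus strand: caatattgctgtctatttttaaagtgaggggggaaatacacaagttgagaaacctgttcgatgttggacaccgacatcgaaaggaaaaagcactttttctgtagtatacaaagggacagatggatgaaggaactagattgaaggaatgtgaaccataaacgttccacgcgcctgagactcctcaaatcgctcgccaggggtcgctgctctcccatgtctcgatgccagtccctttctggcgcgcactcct

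Mcl1, the other survival factor of hepatocytes on the list, was level. It stood at 9.91, 9.84 and 9.90 on the Ad-GFP arrays and 9.94, 9.96 and 10.01 on the Ad-nuclear CREBH arrays. The Ad-nuclear CREBH values were the higher ones, without overlap, but by little. The log2 fold change was 0.09 (95% interval -0.12 to 0.30, adjusted p = 0.486), so that a change of Mcl1 in the size of that of Bcl2l1 lies outside its interval. Its direction depended on the normalization. After quantile and cyclic loess normalization it was -0.09 and -0.02, and after centring of the arrays 0.23 (adjusted p = 0.498, 0.898 and 0.114). On the same arrays, the value of Bcl2l1 minus that of Mcl1 went from -1.13 ± 0.23 (SD, n = 3) to -3.96 ± 0.17 (SD, n = 3), a shift of -2.83. A two-sided exact permutation test of 3 arrays against 3 gave p = 0.1, the smallest it can give. This p was not adjusted over the 3 such differences, which were chosen after values had been seen.

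Bcl2, the founding member of the family, was dim. The brighter of its features read 4.39, 5.40 and 5.32 in Ad-GFP dishes and 3.89, 3.82 and 4.002 in Ad-nuclear CREBH dishes. Ad-GFP replicate 1 was the lowest control and lay nearest to the other group, which it did not reach. The log2 difference was -1.13 (SE 0.26, adjusted p = 0.0102), or -0.95 to -1.45 with 1 array left out. The dimmer feature was at 3.19 and 3.26 (adjusted p = 0.725), and with the mean of both features the change was -0.53. Since the Ad-nuclear CREBH values lie below the median level of all genes, they may be near background, where a fold change is understated. Markers of macrophages moved in both directions. Of 9 measured, 4 fell (Cd14, Cd68, Cd5l and Lyz2) and Csf1r rose (0.61, adjusted p = 0.0254), beside 18.2% and 19.2% of all genes. Only 1 fell without Ad-GFP replicate 1, without Ad-GFP replicate 2 or without Ad-nuclear CREBH replicate 3, and 2 fell without Ad-GFP replicate 3, without Ad-nuclear CREBH replicate 2 or after centring of the arrays. Their summed linear level was 3569 to 4402 on Ad-GFP arrays and 1251 to 2671 on Ad-nuclear CREBH arrays. The sum is mostly that of Cd68 and Cd14, at log2 fold changes of -1.13 and -3.07, whereas Clec4f, Adgre1 and Vsig4, which define liver macrophages, were at or below 5.26 on every array and did not pass, at 0.26, 0.15 and -0.05 (adjusted p = 0.23, 0.48 and 0.875). The part of these markers in the value of Bcl2 was not tested.

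Bak1 encodes the effector that forms the pore itself. Its log2 values were 8.97, 9.27 and 9.20 in Ad-GFP dishes and 7.75, 8.12 and 7.84 in Ad-nuclear CREBH dishes. The groups did not overlap, and the gap between them was wider than the spread within either. It fell 2.37-fold, which is -1.24 on the log2 scale (SE 0.15, 95% interval -1.58 to -0.91, adjusted p = 3.2e-04). A second, dim feature of Bak1 was at 4.60 and 4.57 (adjusted p = 0.941), and with the mean of both the fall was -0.63. The value of Bcl2l1 minus that of Bak1 went from -0.39 ± 0.05 (SD, n = 3) to -1.89 ± 0.33 (SD, n = 3), a shift of -1.50 (two-sided exact permutation p = 0.1, not adjusted over the 3 differences). Bax, the effector related to Bak1, had no feature carrying its symbol alone.

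Of the BH3-only members, which sense damage and set off the effectors, Bid fell. It read 7.73, 8.05 and 7.95 on the Ad-GFP arrays and 6.60, 6.83 and 6.76 on the Ad-nuclear CREBH arrays, with no overlap. This was a 2.26-fold fall, or a log2 difference of -1.18 (SE 0.15, 95% interval -1.52 to -0.84, adjusted p = 4.3e-04), and -1.27 to -1.11 with 1 array left out.

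Bcl2l11, the gene of BIM, varied more between dishes than between groups. The values were 8.11, 7.14 and 7.04 in Ad-GFP dishes and 7.37, 6.75 and 6.72 in Ad-nuclear CREBH dishes. The array numbered 1 was the highest in each group, and the groups overlapped through it. The log2 fold change was -0.48 (95% interval -1.20 to 0.23, adjusted p = 0.275). Without both arrays numbered 1, a choice made after seeing these values, it was -0.35 (adjusted p = 0.0146). Bik, a BH3-only protein of the ER membrane, read 4.76, 5.66 and 5.36 against 4.85, 4.92 and 5.02. These values overlapped and lay around the median level of all genes, and the log2 fold change was -0.33 (adjusted p = 0.32). Without Ad-GFP replicate 1 alone it was -0.58 (adjusted p = 0.0193).

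**Figure D2:**
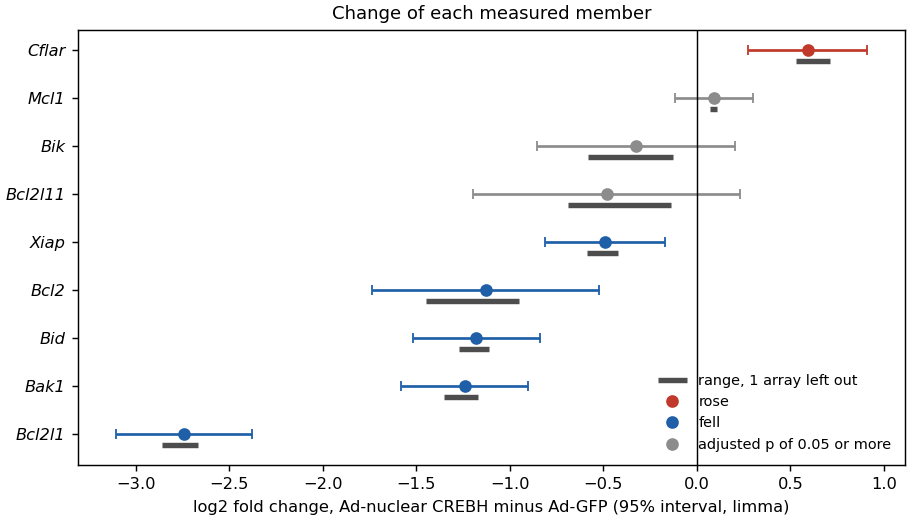
Log2 fold change of each measured member, Ad-nuclear CREBH minus Ad-GFP (n = 3 dishes each), with the 95% interval from limma; red rose, blue fell, grey did not pass, and dark bars span the values with 1 array left out. Bcl2l1 at -2.74 stands apart from Bak1, Bid and Bcl2 between -1.13 and -1.24, and the interval of Mcl1 includes 0.

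The caspase inhibitors on the list went in opposite directions. Cflar, whose product cFLIP competes with caspase-8 at death receptors, was read by 3 features, and the first and the second were almost equally bright, at means of 8.61 and 8.59. The brightest read 8.55, 8.21 and 8.19 in Ad-GFP dishes and 8.95, 8.82 and 8.95 in Ad-nuclear CREBH dishes. All Ad-nuclear CREBH values were above all Ad-GFP values, also on the other features. The difference on the log2 scale was 0.59 (SE 0.14, adjusted p = 0.0102), a 1.51-fold rise, and 0.69 (adjusted p = 0.00779) and 0.94 (adjusted p = 0.00105) on the second and the third feature, the last of which the array annotation assigns to 1 RefSeq transcript and the first to 2. No feature separates the long from the short forms of cFLIP by name. Casp8, the gene of caspase-8, was at 10.71 and 10.89 in the 2 groups (adjusted p = 0.238). The value of Cflar minus that of Casp8 moved from -2.39 ± 0.26 (SD, n = 3) to -1.98 ± 0.21 (SD, n = 3), with p = 0.2 in a two-sided exact permutation test, not adjusted over the 3 differences. Since this test cannot go below 0.1, it does not settle whether both genes changed alike.

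Xiap read 8.80, 9.11 and 9.05 on Ad-GFP arrays and 8.67, 8.36 and 8.45 on Ad-nuclear CREBH arrays. The lowest Ad-GFP value and the highest Ad-nuclear CREBH value were both from arrays numbered 1 and came close to each other. It fell 1.40-fold, or by 0.49 on the log2 scale (SE 0.14, 95% interval -0.81 to -0.17, adjusted p = 0.0245). This call was the least firm of the 6. The adjusted p was 0.0955 without Ad-GFP replicate 2, 0.0895 without Ad-GFP replicate 3, 0.103 without Ad-nuclear CREBH replicate 2 and 0.0885 without Ad-nuclear CREBH replicate 3.

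**Figure D3:**
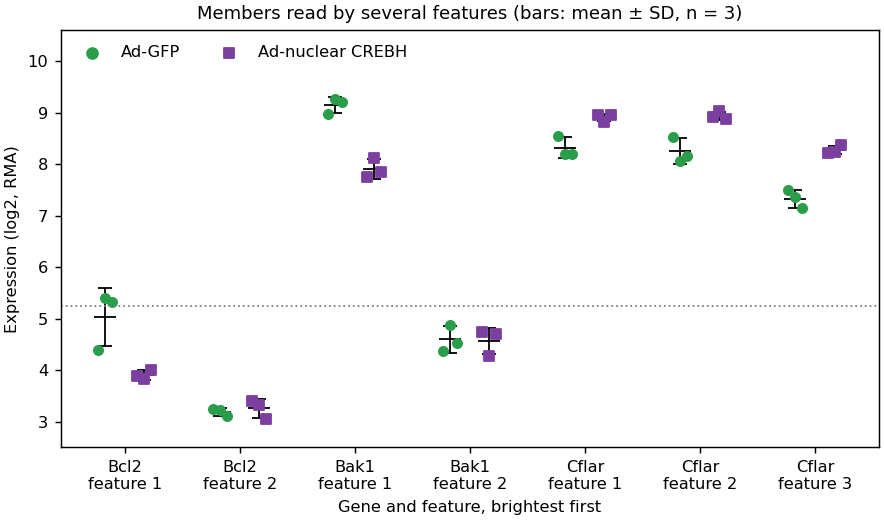
Expression (log2, RMA) on each array for the members read by several features, numbered from the brightest; green circles are Ad-GFP, purple squares Ad-nuclear CREBH, bars the mean ± SD of 3 dishes and the dotted line the median level of all genes, 5.24. All 3 features of Cflar lie higher in Ad-nuclear CREBH dishes, whereas the second features of Bcl2 and Bak1 lie below the dotted line and overlap between groups.

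The methods set thresholds on p, fold change and expression value without stating an adjustment or the direction of each fold. Here p was taken without adjustment and below 0.001, the fold as above 2 or below 0.5, and the expression value as the mean of a group on the linear scale, above 300 in 1 group or both. In that reading Bcl2l1 and Bak1 met the thresholds as downregulated, 2 of 9 members against 3.1% of all genes. None met them as upregulated, against 4.91% of all genes, and Cflar was the member that rose at an unadjusted p under 0.05 in limma. The linear means of Bcl2l1 were 431.7 and 64.4 and those of Bak1 566.9 and 239.6, so that neither met them where both groups had to exceed 300. Bid changed by over 2-fold but its linear means, 240.4 and 106.2, were under the minimum.

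CREBH belongs to the factors that bind cAMP response elements and related elements of the unfolded protein response. The RefSeq table of promoters held 15 windows for 9 of the 10 listed genes and none for Bik. Searched on both strands of the 250 bases before each start, the full element TGACGTCA was in none of the 15 windows and in 1.55% of 32817 windows of all genes. Its core ACGTCA was in 1 window each of Bcl2 and Xiap and in 6.46% of all windows. The overlapping element TGACGTG was in the same window of Xiap and in 1.65% of all windows. The forkhead element GTAAACA was in 1 window of Bcl2l11 and in 3.16% of all windows, and TTGCATCA, an element of C/EBP and ATF factors, in none of the 15 and 0.792% of all. A match is a description of letters and not a binding site.

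Windows of 3 genes are shown, those of Bcl2 and Xiap for their matches and that of Cflar as the member that rose. Capitals mark the matches, which begin 107 bases before the start of Bcl2 and 164 bases before that of Xiap, where TGACGT is the core read on the opposite strand.
Bcl2, chr1:106714291-106714540, minus strand: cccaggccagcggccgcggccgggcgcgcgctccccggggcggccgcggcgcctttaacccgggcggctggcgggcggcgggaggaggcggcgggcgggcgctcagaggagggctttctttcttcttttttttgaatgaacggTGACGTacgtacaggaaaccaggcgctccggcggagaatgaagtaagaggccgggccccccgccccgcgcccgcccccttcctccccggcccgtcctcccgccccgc
Xiap, chrX:42068148-42068397, plus strand: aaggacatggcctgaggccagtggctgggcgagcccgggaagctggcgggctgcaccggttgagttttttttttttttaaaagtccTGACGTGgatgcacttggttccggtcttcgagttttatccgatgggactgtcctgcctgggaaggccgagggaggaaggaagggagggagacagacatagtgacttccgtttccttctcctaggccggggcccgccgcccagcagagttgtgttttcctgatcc
Cflar, chr1:58711241-58711490, plus strand: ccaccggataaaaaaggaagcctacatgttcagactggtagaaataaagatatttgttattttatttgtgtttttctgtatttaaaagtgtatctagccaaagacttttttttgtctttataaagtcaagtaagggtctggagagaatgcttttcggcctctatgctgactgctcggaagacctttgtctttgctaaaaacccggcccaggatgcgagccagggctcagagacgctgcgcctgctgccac

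Around the members, the remaining BCL2 family held 14 measured genes. Of these, 5 fell and 2 rose, beside 18.2% and 19.2% of all genes (median log2 fold change -0.28). The falls numbered 3 without Ad-nuclear CREBH replicate 2 or 3 and after centring of the arrays, and at most 1 rose without Ad-GFP replicate 2 or 3 or without Ad-nuclear CREBH replicate 2 or 3. Pmaip1, the gene of the BH3-only protein NOXA, fell from 6.23, 6.11 and 6.54 to 4.13, 4.06 and 3.77, a log2 difference of -2.30 (SE 0.18, adjusted p = 4.3e-05). Bok, a relative of Bak1, fell from 6.18, 7.33 and 7.22 to 4.98, 5.07 and 5.00, a difference of -1.90 (adjusted p = 0.00128). Neither gene overlapped between groups. Bcl2l12 and Bcl2l14 fell, at -0.96 and -0.67, and Bmf, a BH3-only gene, and Bcl2l13, a mitochondrial relative, rose, at 0.67 and 0.51. Of these, the calls of Bcl2l14, Bmf and Bcl2l13 were lost in 2, 4 and 3 of 6 fits with 1 array left out, with adjusted p up to 0.0623, 0.0818 and 0.0833. The remaining fall, that of Bnip3l (-0.31, adjusted p = 0.0453), was lost in 5 of 6 such fits (adjusted p up to 0.166). Bnip3, a mitophagy gene, was at -0.38 (adjusted p = 0.204), and Bcl2l2, the pro-survival BCL-w gene, was at 0.32 (adjusted p = 0.155).

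Genes of death receptors and their adaptors act upstream of Cflar and Bid. Of 13 measured, 8 fell and 2 rose, beside 18.2% and 19.2% of all genes (median log2 fold change -0.56). The falls numbered 5 without Ad-nuclear CREBH replicate 1 or 2, after centring of the arrays and after cyclic loess normalization. Fas, the receptor of Fas ligand, was at 7.26, 8.74 and 8.70 in Ad-GFP dishes and at 5.37, 5.31 and 5.36 in Ad-nuclear CREBH dishes. The difference was -2.89 (SE 0.37, adjusted p = 4.8e-04), and -3.37 without Ad-GFP replicate 1, the lowest control. Tnfrsf10b, the TRAIL receptor of the mouse, fell from 8.71, 9.23 and 9.29 to 6.37, 6.73 and 6.68, a difference of -2.48 (SE 0.19, adjusted p = 4.6e-05). Its ligand gene Tnfsf10 fell by 2.16 (adjusted p = 7.1e-04) and Tnf changed by -0.95 (adjusted p = 0.00716), the latter around the median level of all genes. Tradd, an adaptor of TNF receptor 1, fell by 0.91 (adjusted p = 0.00247). The falls of Fadd, Cyld and Ripk3, at -0.56, -0.53 and -0.70, were lost in 5, 5 and 3 of 6 fits with 1 array left out (adjusted p up to 0.167, 0.0936 and 0.0963). Traf2, an adaptor of TNF receptors, rose by 0.70 (adjusted p = 0.00374). Tnfrsf1b rose by 0.42 (adjusted p = 0.0458), a call lost in 5 of 6 fits with 1 array left out (adjusted p up to 0.156). Tnfrsf1a, the main TNF receptor of hepatocytes, and Mlkl, the executor of necroptosis, were at 0.50 (adjusted p = 0.116) and -0.10 (adjusted p = 0.755).

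**Figure D4:**
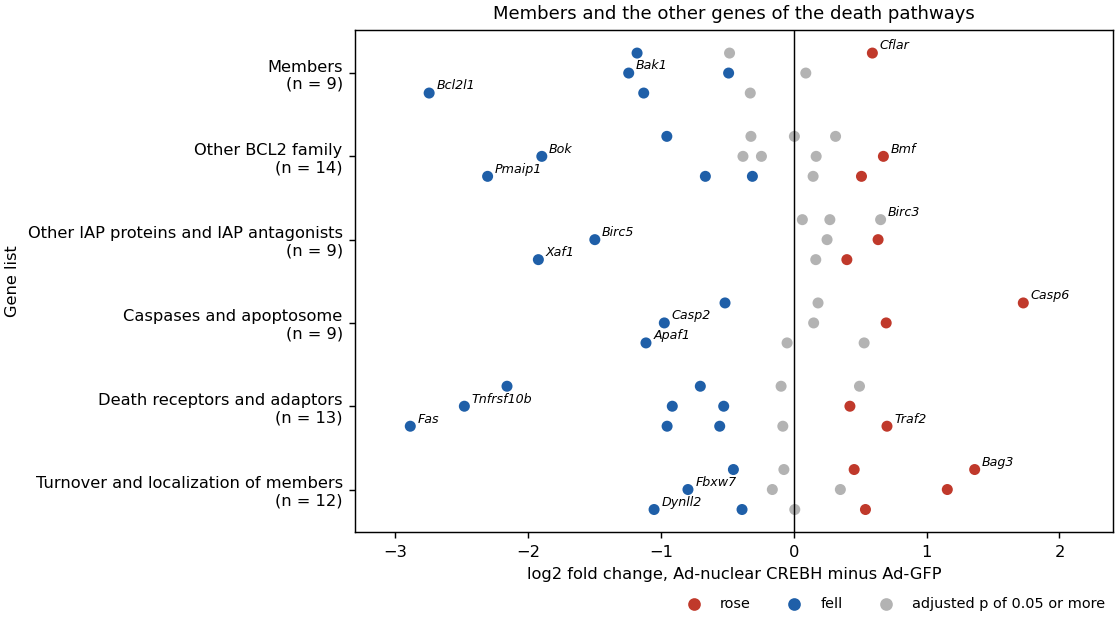
Log2 fold change, Ad-nuclear CREBH minus Ad-GFP (n = 3 dishes each), of each gene of the members and of 5 further lists; red rose, blue fell and grey did not pass at an adjusted p under 0.05, vertical offsets only separate points, and the lowest pair and the highest gene of each list are named. Bcl2l1 and Fas are the lowest points, at -2.74 and -2.89, and Casp6 the highest, at 1.73.

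Downstream of the mitochondria, 9 genes of caspases and the apoptosome were measured. Of these, 3 fell and 2 rose, beside 18.2% and 19.2% of all genes (median 0.15). All 9 were at or above the median level of all genes, where larger shares of genes fell and rose. Casp6, an executioner caspase, rose from 8.81, 8.53 and 8.79 to 10.55, 10.48 and 10.29, by 1.73 (SE 0.13, adjusted p = 3.7e-05), and was in the range of 1.64 to 1.80 with 1 array left out. Apaf1, which assembles the apoptosome around cytochrome c, fell from 7.57, 8.08 and 8.20 to 6.83, 6.94 and 6.75, a difference of -1.11 (adjusted p = 0.00199). Casp2 fell by 0.97 (adjusted p = 0.0016) and Aifm1, a flavoprotein of the inner mitochondrial membrane, changed by -0.52 (adjusted p = 0.0126), whereas the nuclease gene Dffb rose by 0.70 (adjusted p = 0.0235). The calls of Aifm1 and Dffb were lost without Ad-GFP replicate 2 (adjusted p = 0.0513 and 0.0641). Cycs, the cytochrome c gene, was at 0.15 (adjusted p = 0.273). After centring of the arrays 4 of the 9 rose, as they did without Ad-nuclear CREBH replicate 1, and 1 rose without Ad-GFP replicate 2.

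There were 9 further genes of IAP proteins (inhibitors of apoptosis, the family of XIAP) and their antagonists. Of these, 2 fell and 2 rose (median 0.25), beside 18.2% and 19.2% of all genes. After centring of the arrays the counts of these IAP genes were 1 and 4. At most 1 rose without Ad-nuclear CREBH replicate 2 or 3 or without Ad-GFP replicate 2 or 3, and 1 fell without Ad-GFP replicate 1 or 2 or Ad-nuclear CREBH replicate 2 or 3. Birc5, the survivin gene of dividing cells, fell, the difference being -1.50 (adjusted p = 0.00691). Xaf1, an interferon-induced antagonist of XIAP, read 8.40, 7.15 and 6.71 against 6.89, 5.07 and 4.53. The array numbered 1 was highest in each group, and the groups overlapped, although the log2 fold change of -1.92 passed (adjusted p = 0.0444). It did not pass in 4 of 6 fits with 1 array left out (adjusted p up to 0.144). Naip2 and Naip5 rose, at 0.64 and 0.40, with calls lost in 2 and 4 of 6 such fits (adjusted p up to 0.0568 and 0.0682). Naip5 had group means of 2.515 with Ad-GFP and 2.915 with Ad-nuclear CREBH, below the median level of all genes, 5.24, and may be near background. The NAIP genes are near-identical copies whose probes may share transcripts. Birc6 and Birc3 were at 0.17 (adjusted p = 0.24) and 0.65 (adjusted p = 0.117).

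Proteins that degrade, hold or bind the members were also followed. Of 12 such genes 4 rose and 4 fell, beside 19.2% and 18.2% of all genes (median -0.03). All 12 were at or above the median level of all genes, where larger shares of genes rose and fell. Itch, a ubiquitin ligase that targets cFLIP, rose from 8.59, 8.76 and 8.96 to 9.76, 10.08 and 9.93, by 1.16 (SE 0.14, adjusted p = 3.3e-04). Bag3, a co-chaperone that binds BCL-2, rose by 1.36 (adjusted p = 0.00138). Vdac2, the mitochondrial channel that recruits BAK, rose by 0.54 (adjusted p = 0.0015), while Vdac1 fell by 0.45 (adjusted p = 0.0112), a call lost without Ad-nuclear CREBH replicate 2 or 3 (adjusted p up to 0.0532). The dynein light chain genes parted likewise, with Dynll1, which binds BIM, at 0.46 (adjusted p = 0.0035) and Dynll2, which binds BMF, at -1.05 (adjusted p = 0.00158). Fbxw7, a ubiquitin ligase subunit that targets MCL-1, fell by 0.80 (adjusted p = 0.00432), and Ywhaz, a 14-3-3 protein gene, changed by -0.39 (adjusted p = 0.00156). Usp9x, which removes ubiquitin from MCL-1, and Tmbim6, an ER membrane inhibitor of BAX, were at -0.07 (adjusted p = 0.599) and -0.16 (adjusted p = 0.302).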

How the data were processed

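Expression was measured in 6 dishes of primary hepatocytes, 3 per group, with groups and replicate numbers taken from the sample titles. The values are log2 expression from RMA as deposited by the authors; neither its version nor the probe definition is stated in the sources used. The values lie between 1.17 and 13.66 and were not changed further; scanner files were not used here. RMA values carry no flag for background. Of 35556 features, 21218 carried 1 symbol in the platform annotation, 1881 several and 12457 none, and features of 1 symbol entered the analysis. For 1386 genes with several features the brightest on average stands for the gene. No pair of arrays shared more than 11 of 18820 values, and precision is limited by having 3 arrays a group.

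Groups were compared in R 4.3.3 with limma 3.58.1 (lmFit, eBayes with an intensity trend, no covariate, residual degrees of freedom 4, prior 3.97) and Benjamini-Hochberg adjustment over 18820 genes, after a check on simulated data. The methods name an intensity-based moderated statistic, which was tried as an alternative. Other alternatives were the variance prior, array weights, a replicate block, normalization, features per gene, a level minimum and leaving out arrays. Members, gene lists and tests were chosen with earlier results of these data known. Named genes are all members, in each list up to 4 rises and 4 falls of largest size, the 2 brightest that did not pass, and the 2 brightest markers; the other markers, Bnip3l, Fadd, Tradd, Cyld and Ripk3, and the pairs of genes compared on the same array, were chosen after values were seen. Promoter sequences are from RefSeq, build GRCm38.p6. Array features have no coordinates in the files used. Figures were drawn with matplotlib 3.10.9.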

Additional observations from a re-analysis of the deposited data

How the results depend on the processing

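The calls of Bcl2l1, Bak1, Bid, Bcl2 and Cflar passed in every alternative that included the gene, also with 1 array left out; Bcl2 and Bik fall below the level minimum and were not tested under it. Xiap was lost with arrays centred on their median and with each of 4 arrays left out (-0.59 to -0.42 over all 6). With 1 array left out 4 to 6 members fell and 1 rose, while 2637 to 4043 of all genes fell and 2877 to 3764 rose. Without both arrays numbered 1 (chosen after seeing the data) 7 members fell and 1 rose. In that fit 4765 of all genes fell and 4377 rose, both more than the 3427 and 3615 of the main fit. Array weights gave Bik a call (-0.49, adjusted p = 0.0272). With both group means over 300 the thresholds of the methods, as read here, were met by 369 genes up, 161 down and 0 members in either direction. With no minimum they were met by 1617 genes up and 1394 down, and by 0 members up and 3 down. Over all alternatives the counts risen and fallen were 0 to 3 and 2 to 7 for the other BCL2 family, 1 to 3 and 5 to 8 for death receptors, 1 to 5 and 2 to 3 for caspases, 0 to 4 and 1 to 2 for IAP genes and 0 to 1 and 1 to 4 for macrophage markers.

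The replicate numbers were not taken as pairs in the main fit. Deviations from the group means correlated at 0.178, 0.073 and 0.139 between same-numbered arrays. Between an array numbered 1 and a differently numbered array of the other group the correlation was from -0.173 to -0.102. Ad-GFP replicate 2 correlated about as well with Ad-nuclear CREBH replicate 3 (0.08) as with replicate 2. These values do not settle whether same-numbered arrays are pairs. With the replicate number as a block, 3715 genes rose and 3705 fell, and 6 members fell, Bcl2l11 now among them (-0.48, adjusted p = 0.04).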

Other observations

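The promoters of the members differ in base composition. In the 250 bases before the start, the GC content was 74.8% for Bcl2 with 36 CpG dinucleotides, 72.0% for the first window of Bcl2l11 with 24 and 64.4% for Mcl1 with 26, against a median of 52.4% and 6 over 32817 windows. It was 42.8% for Cflar with 7, and 47.6% for the outermost window of Bcl2l1 with 12. Bak1 and Bid, which fell by about the same amount, had 8 and 18.

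Among markers of other liver cells, Epcam, a cholangiocyte marker, rose from 5.12, 4.45 and 4.71 to 6.52, 6.58 and 6.39 (log2 fold change 1.74, adjusted p = 2.5e-04 from limma), while Krt19 fell by 1.06 (adjusted p = 0.00409) and Krt7 was at 0.05 (adjusted p = 0.815), both named after their values were seen. The brightest endothelial markers, Cdh5 and Pecam1, were at 0.01 and 0.02 (adjusted p = 0.97 and 0.943), and the brightest lymphocyte markers, Ptprc and Cd8a, at 0.04 and -0.07 (adjusted p = 0.897 and 0.719). Ptprc and Cd8a had mean levels of 4.16 and 4.04, below the median level of all genes, 5.24, and may be near background. Sox9, the brightest cholangiocyte marker, was at 0.58 (adjusted p = 0.278). Of 9 stellate cell markers measured, 0 rose, 1 fell and 8 did not pass, beside 19.2% risen and 18.2% fallen among all genes. Their median log2 fold change was 0.11. The fall was that of Reln, at -1.90 (adjusted p = 1.6e-04). Lrat and Acta2 were at 0.16 and -0.43 (adjusted p = 0.389 and 0.305). Col1a1 read 5.25, 4.90 and 4.78 in Ad-GFP dishes and 5.02, 7.30 and 7.51 in Ad-nuclear CREBH dishes. There, replicate 1 stood with the controls (adjusted p = 0.0619). Without Ad-nuclear CREBH replicate 1, 3 stellate cell markers rose and 1 fell.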
